A study of Mus musculus with 21 samples.

Results

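The Gimap genes encode the GTPases of immunity-associated proteins, a family of small GTP-binding proteins that are lined up next to each other on a single mouse chromosome. The family was followed here in hematopoietic stem cells (HSCs) from mice given the antimetabolite 5-fluorouracil (5-FU), which kills dividing blood cells and drives HSCs into the cell cycle. The members were the 8 rows of the count table with the symbols Gimap1, Gimap3, Gimap4, Gimap5, Gimap6, Gimap7, Gimap8 and Gimap9, out of 21000 gene symbols. They were chosen by name, after Gimap4 had been seen to be higher at day 21 after 3 administrations of 5-FU than in mice given PBS 3 times. That comparison, and every other with either of those groups, is therefore given here as a description with no test. The tests below rest on the other 5 groups.

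Most GIMAP proteins are made in lymphocytes, where they sit on membranes of the endoplasmic reticulum, Golgi, lysosomes and lipid droplets and act on survival and maturation. Gimap5 is the best known: T cells of mice without it do not survive, and it has also been tied to the upkeep of HSCs. Gimap3 is a close relative of Gimap5, Gimap1 is needed for mature B and T cells, Gimap6 binds the autophagy protein GABARAPL2, and Gimap4 has been linked to lymphocyte apoptosis. Less is established for Gimap7, which can activate other members by dimerising with them, for Gimap8, which carries several GTP-binding domains, and for Gimap9.

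RNA was sequenced from 21 HSC libraries, 3 in each of 7 groups, all from wild-type C57BL/6 mice. Mice aged 10 weeks received PBS or 150 mg/kg 5-FU by intraperitoneal injection, either once or 3 times with 21 days between administrations. HSCs were taken at day 6 after PBS once, 5-FU once, PBS 3 times and 5-FU 3 times, and at day 21 after 5-FU once and 5-FU 3 times. The seventh group was untreated mice aged 2 years, called old here. HSCs were sorted as CD150+CD48- cells of the lineage-negative Sca-1+c-Kit+ fraction. The methods define them as Flt3- too in C57BL/6 mice, except where EPCR was stained, and which applied to these libraries is not stated. The study's methods widened the c-Kit gate and left out the Mac-1 antibody at day 6 after 5-FU. They did not widen the gate at other times. Gate and treatment thus cannot be told apart at day 6, nor gate and day between day 6 and day 21 after 5-FU. Whether each library came from separate animals is not given for each sample, and p-values measure the spread between these libraries.

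Library totals ran from 22184885 to 38649033 counts, with a median of 26962256, so that 3 counts, the floor used here, stood for 0.0850 to 0.128 CPM (counts scaled to a fixed library size). The 12 HSC markers examined were above that floor in every group, and their summed level was 3473 to 4050 CPM in both groups taken at day 6 after 5-FU and 4672 to 5568 CPM in the other 5. Kit, the receptor used in the gate, was at 583 to 778 CPM in those day 6 libraries and at 948 to 1371 CPM elsewhere. Of the 13 T cell markers, Cd8a and Themis were at 0 in all libraries and Cd3e did not exceed 0.0297 CPM, while the list summed to 25.7 to 63.3 CPM, mostly from Lck and Lat. The 9 NK and innate lymphoid markers summed to 12.4 to 51.1 CPM, with Ncr1, Klre1 and Gzma at 0 in all libraries, and the 9 B cell markers to 31.3 to 58.8 CPM. The 10 myeloid markers summed to 53.1 to 75.3 CPM in both day 6 groups after 5-FU and to 89.2 to 152 CPM elsewhere. The 6 erythroid markers summed to 19.5 to 57.8 CPM in the groups other than old mice and to 61.6 to 88.2 CPM in old mice. Cd48 was at 7.19 to 12.1 CPM in the day 6 libraries after 5-FU and at 1.35 to 7.29 CPM elsewhere. Flt3 was at 3.22 to 14.9 CPM in the day 6 libraries after 5-FU, at 10.7 to 12.5 CPM in old mice and at 20.4 to 29.9 CPM in the other 4 groups. The column names of the 6 libraries of PBS once and 5-FU once at day 6 carry a suffix, of unstated meaning, that the other 15 lack. It divides the groups in every tested comparison except that of 5-FU once with PBS once at day 6.

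The 8 genes lie within 124 kb of chromosome 6 (48647234 to 48770851, GRCm38), in the order Gimap8, Gimap9, Gimap4, Gimap6, Gimap7, Gimap1, Gimap5 and Gimap3, with 0 other genes of the table between them. Gimap6 and Gimap3 are on the minus strand and the others on the plus strand. Gimap4 runs from 48684549 to 48692060 and Gimap7, beyond Gimap6, from 48718621 to 48724636. Some reads could not be assigned to a member with certainty. Of all 75-base windows in Gimap3 transcripts, 4.01% also occurred in Gimap5. The antisense gene Gimap1os covers 36% of the exonic bases of Gimap1, and the readthrough gene model Gm28053 covers between 3.48% and 6.44% of those of Gimap7, Gimap5 and Gimap1. Whether the counting used strand is not stated, so counts of Gimap1 and its antisense partner cannot be told apart. Gimap4, Gimap6, Gimap8 and Gimap9 had neither kind of overlap.

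The windows before the transcription starts are shown for Gimap4 and Gimap7, whose levels moved most, and for Gimap1, whose level moved little, because all 3 hold the letters TGTGGT, the core sequence read by RUNX factors of blood cells. Capitals mark these letters, here as ACCACA since the match is on the opposite strand, and in Gimap1 also a CCAAT box. Each line gives 250 bases, 5′ to 3′, from RefSeq (GRCm38.p6, plus strand).
Gimap4 (chr6:48684328-48684577): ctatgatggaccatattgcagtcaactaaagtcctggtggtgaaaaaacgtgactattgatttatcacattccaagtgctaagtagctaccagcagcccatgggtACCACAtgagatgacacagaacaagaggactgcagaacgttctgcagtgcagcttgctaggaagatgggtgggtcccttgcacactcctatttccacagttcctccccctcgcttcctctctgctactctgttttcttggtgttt
Gimap7 (chr6:48718371-48718620): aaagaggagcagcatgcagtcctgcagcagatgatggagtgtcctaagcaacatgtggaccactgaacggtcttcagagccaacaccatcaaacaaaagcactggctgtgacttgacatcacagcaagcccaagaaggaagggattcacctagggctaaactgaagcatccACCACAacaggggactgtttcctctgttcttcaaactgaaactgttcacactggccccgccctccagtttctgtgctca
Gimap1 (chr6:48738797-48739046): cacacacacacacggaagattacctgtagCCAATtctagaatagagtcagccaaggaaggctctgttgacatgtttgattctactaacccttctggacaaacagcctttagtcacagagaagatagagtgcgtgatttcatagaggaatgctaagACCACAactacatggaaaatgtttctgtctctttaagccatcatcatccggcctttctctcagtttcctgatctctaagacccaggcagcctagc
TGTGGT, on either strand, was in 14% of 32851 promoter windows of this length. Of the other motifs searched on both strands, TATAAA was found for Gimap6, CAGGAAGT for Gimap5, and CCAAT for Gimap1, Gimap6 and Gimap9, against 12.4%, 2.69% and 33.8% of all windows. The letters AGATAA (9.99% of all windows) were in no member's window. The same held for the E box CACGTG (6.02%) and for the AP-1 letters TGAGTCA (4.46%). A match of letters is not evidence of binding, and the level of Gimap1 shows that genes with the same letters had different patterns.

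All 8 members were measured in HSCs, at very different levels. Per kb of the longest transcript, Gimap1 stood highest with a mean of 138 CPM per kb over the libraries, followed by Gimap4 (31.7), Gimap8 (27.0), Gimap6 (14.7), Gimap5 (13.3), Gimap9 (10.8), Gimap3 (5.05) and Gimap7 (1.60). Gimap7 rested on 13 to 124 counts per library, and the other members on at least 124 counts in any library. Every member passed the filter on low counts in each comparison. In bulk libraries a difference in level can reflect fewer expressing cells or less RNA per cell, which cannot be told apart.

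**Figure D1:**
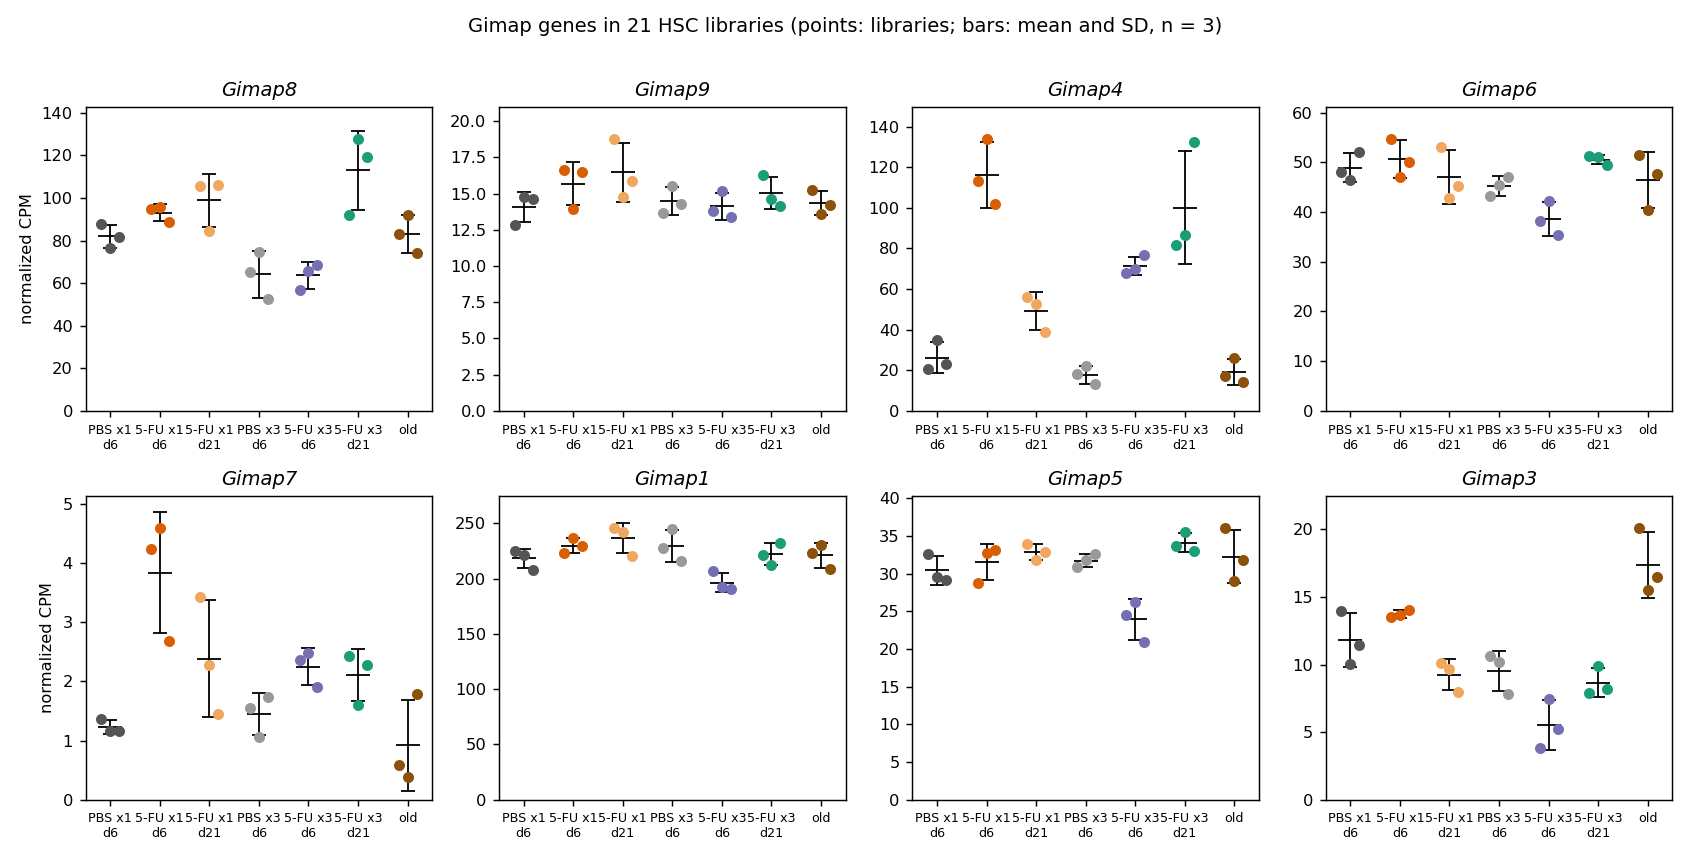
Normalized CPM (y axis, linear from 0) of the 8 Gimap genes in each of 21 HSC libraries (points), by group (x axis; x1 and x3 stand for 1 and 3 administrations, d for day), with the mean and SD of 3 libraries as bars. Gimap4 spans 13.4 to 134 CPM with its highest libraries after 5-FU, whereas Gimap9 stays between 12.9 and 18.7 CPM.

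Gimap4 varied most. Its highest group mean, after 5-FU once at day 6, was 6.55 times its lowest, in mice given PBS 3 times. The corresponding ratio was 4.19 for Gimap7, 3.14 for Gimap3 and 1.78 for Gimap8, and it lay between 1.17 (Gimap9) and 1.42 (Gimap5) for the other 4. In order of group means, Gimap4 was at 116 CPM after 5-FU once at day 6, 100.1 after 5-FU 3 times at day 21, 71.4 after 5-FU 3 times at day 6, 49.2 after 5-FU once at day 21, 26.2 after PBS once, 19.0 in old mice and 17.7 after PBS 3 times. The libraries of the first pair of neighbours in this order overlapped, as did those of the last 3 groups, and the steps between 100.1 and 26.2 CPM were free of overlap. All 12 libraries of 5-FU-treated mice were above all 9 others for Gimap4. The lowest library after 5-FU was at 38.8 CPM and the highest without 5-FU at 34.9 CPM. Both groups used to choose the family are among these libraries, so the split is a description. How many of all genes split in this way was not counted.

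The first comparison asks how the cluster responds to a single dose of 5-FU. Gimap4 rose 4.40-fold at day 6, and Gimap7 rose 3.10-fold. The other 6 members did not pass the test. Gimap4 was at 113, 134 and 102 CPM in the 3 libraries after 5-FU once and at 20.9, 34.9 and 22.9 CPM in those after PBS once. Every treated library lay far above every control library. The log2 fold change was 2.14 (SE 0.21, adjusted p = 0.0016, edgeR's quasi-likelihood F test with Benjamini-Hochberg adjustment over all genes). It stayed past the threshold under every alternative tried.

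Gimap7, whose counts were low, was at 4.24, 4.59 and 2.68 CPM after 5-FU once and at 1.37, 1.16 and 1.16 CPM after PBS once. The groups did not overlap, but the third treated library stood well below the other 2. The log2 fold change was 1.63 (SE 0.36, adjusted p = 0.0192, same test). The call was lost with adjusted p of 0.0513 to 0.0801 when 5-FU library 1 or 2, or PBS library 2 or 3, was left out, with log2 fold changes of 1.49 to 1.59.

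For the other 6 members the log2 fold change lay between 0.04 (Gimap6) and 0.21 (Gimap3). For Gimap1, Gimap5 and Gimap6 the 95% intervals reached from −0.21 to 0.29 at the widest, so that a change of the size seen for Gimap4 lay outside them. For Gimap3, Gimap8 and Gimap9 the upper bounds were 0.59, 0.39 and 0.46. Gimap8 was at 95.1, 95.9 and 88.6 CPM against 87.7, 76.6 and 81.6 CPM, which did not overlap, yet the difference did not pass the test (adjusted p = 0.148, edgeR). The members' median log2 fold change was 0.16, beside −0.00056 for all genes tested.

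In this comparison 11.5% of 12759 tested genes were called higher and 10.6% lower, beside 2 and 0 of the 8 members; at an unadjusted p under 0.05, and with DESeq2, 0 members were lower as well. The calls over all genes were 52% higher, and 41% higher when libraries were scaled by total count alone. The T cell markers summed to 25.7 to 39.6 CPM after 5-FU once and 40.4 to 63.3 CPM after PBS once. The endothelial marker list was higher after 5-FU once (609 to 653 CPM against 339 to 403 CPM), mostly from Egfl7, with Cdh5 at 0.210 CPM at most, and the megakaryocyte marker list was lower (39.7 to 51.2 CPM against 131 to 160 CPM). The part of these lists in the Gimap result was not tested.

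**Figure D2:**
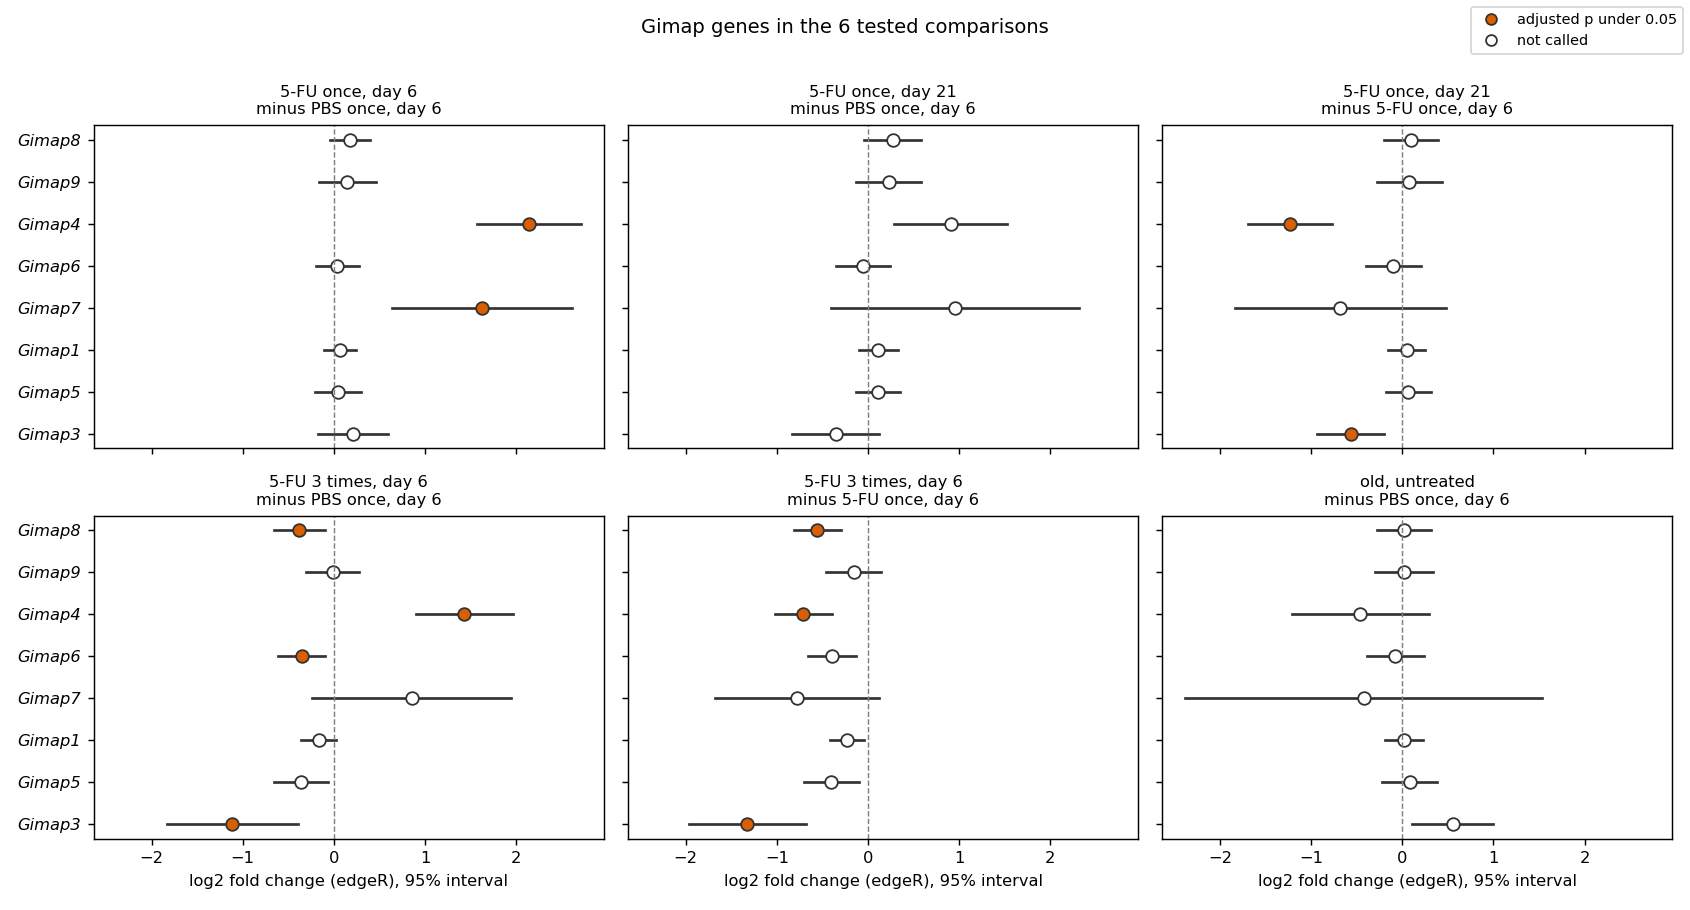
Log2 fold change from edgeR (x axis) of each Gimap gene (y axis, in chromosomal order) in the 6 tested comparisons, with 95% intervals and 3 libraries per group; filled circles passed an adjusted p of 0.05. In the comparison of 5-FU once with PBS once at day 6 (upper left), Gimap4 and Gimap7 lie right of 0, at 2.14 and 1.63.

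At day 21 after 5-FU once, Gimap4 had come down again. It was at 56.1, 52.9 and 38.8 CPM, below each of the day 6 libraries. The log2 fold change from day 6 to day 21 was −1.23 (SE 0.17, adjusted p = 0.0034, edgeR with Benjamini-Hochberg adjustment). Gimap3 fell too. It was at 10.1, 9.66 and 7.93 CPM at day 21 and at 13.5, 13.7 and 14.0 CPM at day 6, without overlap. Its log2 fold change was −0.57 (SE 0.13, adjusted p = 0.0215, edgeR), and the call was lost when day 21 library 3 or any day 6 library was left out (adjusted p 0.0514 to 0.0726). Gimap7 was at 3.44, 2.27 and 1.46 CPM at day 21, overlapping day 6, with a log2 fold change of −0.68 (SE 0.42, adjusted p = 0.265, edgeR). The other 5 members lay between −0.10 and 0.09. Of all 12589 genes tested, 13.7% were lower and 12.3% higher at day 21, beside 2 and 0 of the members, with 0 higher also at an unadjusted p under 0.05 and with DESeq2.

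Against PBS once, 0 members passed edgeR's test at day 21 after 5-FU once. The day 21 libraries for Gimap4 were still all above those of PBS once, as were those for Gimap7 and Gimap9. How many of all genes did so was not counted. For Gimap4 the log2 fold change was 0.91 (SE 0.22, 95% interval 0.29 to 1.53, adjusted p = 0.150, edgeR), and DESeq2 called it with an adjusted p of 0.0070. Gimap4 and Gimap8 were the 2 members with an unadjusted p under 0.05, and DESeq2 called 1. The background was small here, with 0.0712% of 12647 genes higher and 0.150% lower. Gimap7 had a log2 fold change of 0.96 with an interval from −0.40 to 2.31, which leaves its size undetermined at this depth.

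After the last of 3 administrations, at day 6, Gimap4 was again high and several of its neighbours were low. Gimap4 was at 67.8, 69.8 and 76.5 CPM. This was 2.70 times the level after PBS once, a log2 fold change of 1.43 (SE 0.19, adjusted p = 0.0037, edgeR with Benjamini-Hochberg adjustment), which was called under every alternative tried. Gimap3, the relative of Gimap5, was at 3.81, 7.48 and 5.27 CPM against 13.9, 10.0 and 11.5 CPM after PBS once. Its log2 fold change was −1.11 (SE 0.26, adjusted p = 0.0242, edgeR). Gimap6, the partner of GABARAPL2, was at 38.2, 42.3 and 35.4 CPM against 48.1, 46.4 and 52.2 CPM, a log2 fold change of −0.35 (SE 0.09, adjusted p = 0.0351, edgeR). Gimap8 was at 56.7, 65.6 and 68.7 CPM against 87.7, 76.6 and 81.6 CPM, a log2 fold change of −0.38 (SE 0.10, adjusted p = 0.0361, edgeR). In each of these 3, and in Gimap1 and Gimap5, which were not called, no treated library reached a control library. How many of all genes did not overlap was not counted in the tested comparisons. Against PBS 3 times, downward non-overlap was seen for 17.8% of 12729 genes.

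Gimap5 was at 24.5, 26.3 and 21.0 CPM against 32.6, 29.6 and 29.1 CPM, just short of a call, with a log2 fold change of −0.36 (SE 0.11, adjusted p = 0.0506, edgeR), and 5 of 13 alternatives called it. Gimap1 at −0.17 was not called. Gimap7 was at 2.37, 2.48 and 1.90 CPM, above all 3 PBS once libraries, with a log2 fold change of 0.86 (SE 0.39, adjusted p = 0.165, edgeR). Gimap9 had a log2 fold change of −0.0098 with an interval from −0.30 to 0.28. In all, 1 member was called higher and 3 lower, beside 11.8% and 9.35% of 12761 genes. The calls over all genes were 55.7% higher, and 31.1% higher when libraries were scaled by total count alone, which shifted the median of all genes to −0.14 and called Gimap1 and Gimap5 lower as well. The Gimap3 call was lost without 5-FU library 3 or PBS library 1 or 3 (adjusted p 0.0631 to 0.0746). That of Gimap6 was lost without 5-FU library 1 or 3 or any PBS library (0.0642 to 0.104), and that of Gimap8 without 5-FU library 1 or 2 or any PBS library (0.0596 to 0.105).

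The same libraries were set beside a control without the column suffix, PBS 3 times, as a description. Gimap4 had a log2 fold change of 1.99 (SE 0.17) at day 6 after 5-FU 3 times relative to PBS 3 times. Gimap1, Gimap3, Gimap5 and Gimap6 were below PBS 3 times without overlap, with log2 fold changes of −0.25, −0.81, −0.43 and −0.25. Gimap8 overlapped it, at 65.4, 74.7 and 52.4 CPM after PBS 3 times, with a log2 fold change of −0.03 (SE 0.14). The Gimap8 difference thus depended on which PBS group served as control. Gimap4 and Gimap7 were above PBS 3 times without overlap. Groups not overlapping were seen upward for 22.5% and downward for 17.8% of 12729 genes, beside 2 and 4 members.

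The groups given 5-FU 3 times and once were compared directly at day 6. They also differ in the column suffix and in the time since the first administration. Neither can be told apart from the number of administrations. Relative to 5-FU once, the libraries of 5-FU 3 times had lower Gimap3, Gimap4 and Gimap8. The log2 fold changes were −1.32 (SE 0.23, adjusted p = 0.0355, edgeR) for Gimap3, −0.71 (SE 0.11, adjusted p = 0.0299, edgeR) for Gimap4 and −0.56 (SE 0.09, adjusted p = 0.0324, edgeR) for Gimap8. All 8 members had a log2 fold change below 0, from −0.16 (Gimap9) to −1.32, with a median of −0.48 beside −0.0077 for all genes. Of all 12629 genes, 1.20% were called lower and 1.49% higher, beside 3 and 0 members. At an unadjusted p under 0.05 in edgeR's test, 7 members were lower and 0 higher, and DESeq2 called 6 lower and 0 higher. The share of all genes at an unadjusted p under 0.05 was not counted. The calls over all genes were 55.5% higher, or 35.5% when scaled by total count alone. The Gimap4 and Gimap8 calls were lost whichever of the 6 libraries was left out (adjusted p 0.0503 to 0.107), and that of Gimap3 for each of them except library 2 of 5-FU 3 times (0.0605 to 0.111).

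Kit was at 583 to 622 CPM after 5-FU once and at 728 to 778 CPM after 5-FU 3 times, and the summed HSC markers were lower after 5-FU 3 times (3473 to 3547 CPM against 3878 to 4050 CPM). The megakaryocyte markers summed to 98.3 to 107 CPM after 5-FU 3 times and to 39.7 to 51.2 CPM after 5-FU once, and 3 of the 6 (Itga2b, Gp1bb and Gp5) were called higher. The endothelial markers summed to 521 to 573 CPM after 5-FU 3 times and to 609 to 653 CPM after 5-FU once. The T cell markers summed to 32.7 to 47.6 CPM after 5-FU 3 times, and their ranges overlapped. The part of these differences in the Gimap result was not tested.

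In HSCs of old mice 0 members passed edgeR's test against PBS once, 1 member (Gimap3) had an unadjusted p under 0.05, and DESeq2 called 0. Gimap3 was at 20.1, 15.5 and 16.5 CPM in old mice, above every library of the 6 groups of young mice. How many of all genes split old from young mice in this way was not counted. The Gimap3 log2 fold change was 0.55 against PBS once (SE 0.16, adjusted p = 0.159, edgeR) and, as a description, 0.85 (SE 0.16) against PBS 3 times. Gimap4 was at 17.0, 26.1 and 14.0 CPM, within the range of the PBS groups. Gimap7 had its 2 lowest libraries here, at 0.584, 0.377 and 1.79 CPM, with a log2 fold change of −0.42 and an interval from −2.38 to 1.53. The other 5 members lay between −0.08 and 0.08. In this comparison 1.44% of 12855 genes were called higher and 0.443% lower, and 76.4% of these calls were higher, or 65.9% when scaled by total count alone. Relative to PBS 3 times, 1 member stood above it without overlap and 0 below, beside 8.44% and 8.49% of 12847 genes.

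The values that led to the choice of the family were those of Gimap4 at day 21 after 5-FU 3 times, at 81.5, 86.5 and 132 CPM, against 17.9, 21.9 and 13.4 CPM after PBS 3 times. The log2 fold change was 2.49 (SE 0.25), a description since it chose the members. Gimap8 was at 92.1, 128 and 119 CPM against 65.4, 74.7 and 52.4 CPM, a log2 fold change of 0.81 (SE 0.17). Gimap7 overlapped, with 0.54 (SE 0.45), and the other 5 members lay between −0.15 and 0.16, of which Gimap5 and Gimap6 did not overlap. Groups not overlapping were seen for 11.0% of 12632 genes upward and 10.4% downward, beside 4 and 0 members. Between the PBS groups, PBS 3 times against PBS once, the log2 fold change was −0.56 (SE 0.25) for Gimap4, −0.30 (SE 0.18) for Gimap3 and −0.35 (SE 0.14) for Gimap8. Of the members, Gimap8 alone did not overlap, beside 10.1% of 12806 genes downward and 9.96% upward.

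After 3 administrations the members did not come down from day 6 to day 21 as Gimap4 and Gimap3 had after 1. Gimap1, Gimap3, Gimap4, Gimap5, Gimap6 and Gimap8 were higher at day 21 without overlap, given as a description. Their log2 fold changes were 0.18, 0.65, 0.49, 0.52, 0.39 and 0.83 (SE 0.08, 0.27, 0.18, 0.11, 0.09 and 0.14). That is 6 members upward and 0 downward, beside 19.2% and 21.8% of 12553 genes. Between the day 21 groups only Gimap4 among the members did not overlap, with a log2 fold change of 1.02 (SE 0.22) for 5-FU 3 times relative to 5-FU once, beside 6.65% of 12474 genes upward and 5.96% downward.

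**Figure D3:**
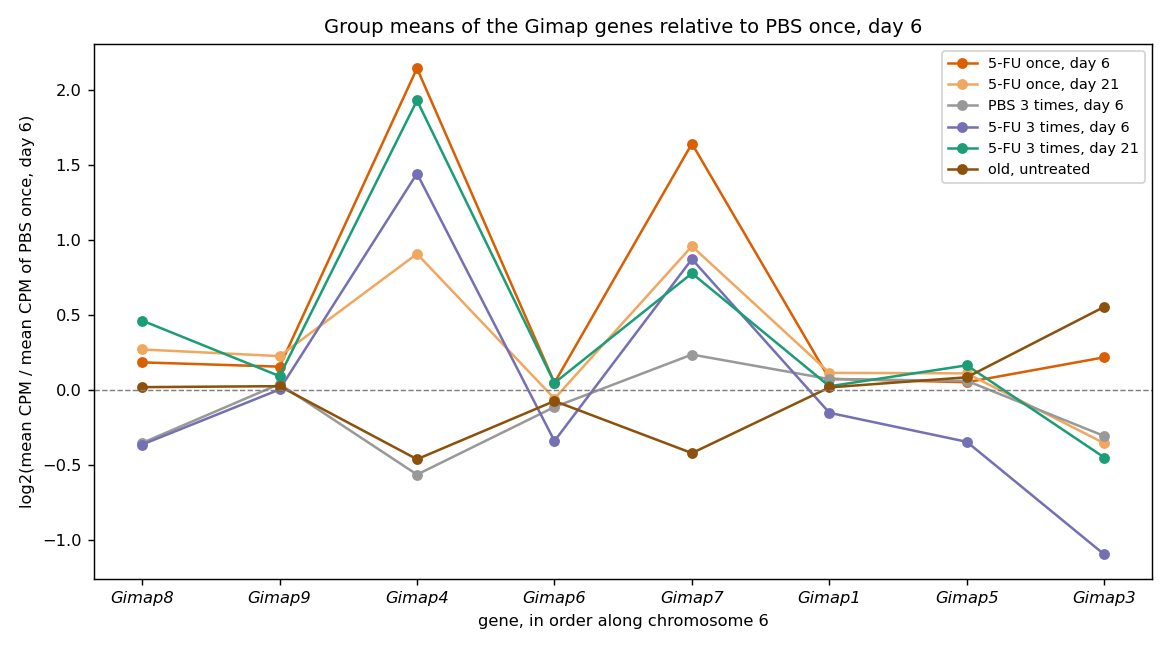
Log2 ratio of each group's mean CPM to the mean of PBS once at day 6 (y axis) for the 8 Gimap genes in their order along chromosome 6 (x axis); lines only join the points of a group, each a mean of 3 libraries. The 4 groups given 5-FU peak at Gimap4 and Gimap7, with Gimap6, which lies between them, near or below 0.

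The cluster did not shift as a block over the 7 groups as a whole. In some comparisons most members did move the same way. All 8 had a log2 fold change below 0 at day 6 for 5-FU 3 times relative to 5-FU once. From day 6 to day 21 after 5-FU 3 times, 6 were higher without overlap and 0 lower, beside 19.2% and 21.8% of 12553 genes. Across the 7 group means of log2(CPM + 0.5), 23 of 28 pairs of members had a Pearson's r above 0, with a median of 0.49 and a range from −0.36 to 0.88. These are descriptions over 7 points that share libraries and scaling. Both groups used to choose the family are among the 7, and pairs of other genes were not computed for comparison. Gimap4 and Gimap7 were alike (r = 0.88), and the pairs of Gimap1, Gimap5 and Gimap6 had r of 0.73 to 0.88 (Spearman's rho 0.36 to 0.57). Gimap8 had r of 0.51, 0.69 and 0.77 with these 3 (rho 0.61, 0.82 and 0.82). Gimap4 and Gimap3 had the lowest r (−0.36). Gimap6, the gene between Gimap4 and Gimap7, had r of 0.14 and 0.10 with them.

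**Figure D4:**
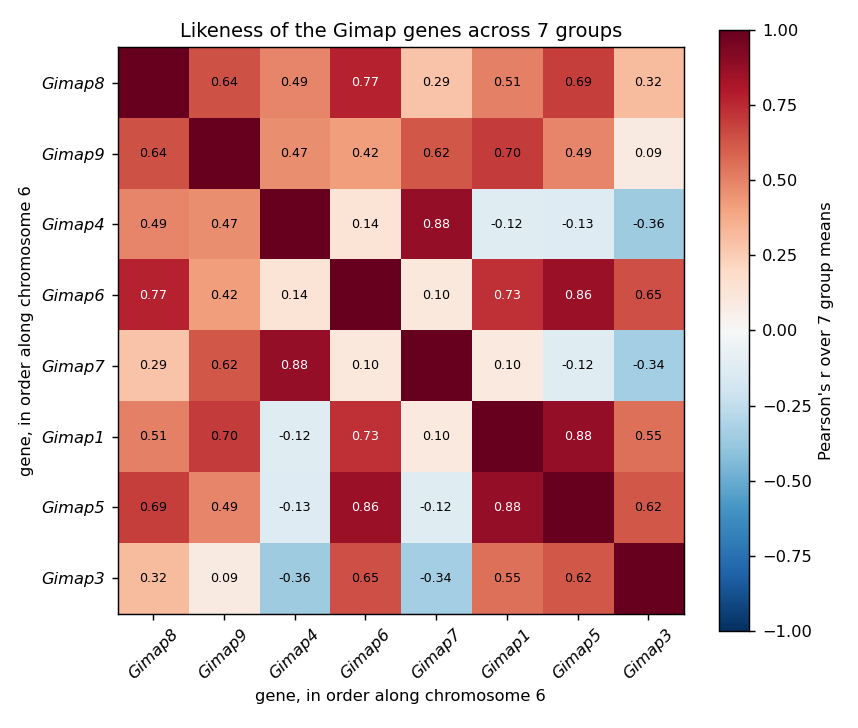
Pearson's r between Gimap genes over the 7 group means of log2(CPM + 0.5), with genes in chromosomal order on both axes and r as colour and number. The pair of Gimap4 and Gimap7 stands at 0.88, while Gimap4 is at −0.12, −0.13 and −0.36 with Gimap1, Gimap5 and Gimap3.

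The uneven change altered the make-up of the family's RNA. The CPM of the 8 members summed to 433 ± 10.8 (SD, n = 3) after PBS once and to 555 ± 21.6 after 5-FU once at day 6. Shares were taken of a different sum, that of the members' CPM per kb of the longest transcript. Gimap4 made up 6.57% ± 1.82 of the per-kb sum after PBS once and 22.4% ± 2.18 after 5-FU once at day 6. After 5-FU 3 times at day 6 it made up 18.1% ± 1.34. Gimap1 made up 61.2% ± 0.770 of the per-kb sum after PBS once and 49.7% ± 1.39 after 5-FU once at day 6. The mean of the members over the 7 groups was also compared with the 10483 other genes with a mean of at least 5 CPM. The most alike were Rgl2 (r = 0.99), Tmem63a (0.98), Ccnt1 (0.97), Esf1 (0.96) and Fam102a (0.95). All had their highest mean after 5-FU once at day 6. They head a ranking of 10483 genes over only 7 points, where high values of r are easily reached, and no test was made.

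The genes flanking the cluster were read from the same fits, for which the shares of all genes called are given above. The 5 nearest on either side were Zfp775, Repin1, Gm5111, Rarres2 and Lrrc61 before Gimap8, and Tmem176b, Tmem176a, Gm7932, Aoc1 and Doxl2 after Gimap3, of which the last pair were at 0. Zfp775, a zinc finger gene 24007 bases before Gimap8, fell after 5-FU once at day 6 (log2 fold change −1.14, adjusted p = 0.0185, edgeR), where Tmem176a rose (0.26, adjusted p = 0.0340, edgeR). Zfp775, Repin1 and Lrrc61 were higher at day 21 than at day 6 after 5-FU once (1.27, 0.35 and 0.80). Zfp775 was lower at day 6 after 5-FU 3 times than after PBS once (−0.85). Tmem176b and Tmem176a, membrane proteins of antigen-presenting cells, were higher in old mice than after PBS once (0.42 and 0.60). After PBS 3 times, Tmem176b was at 1711 to 1783 CPM and overlapped old mice at 1736 to 2001 CPM. In the other 2 comparisons 0 of the 8 tested flanking genes passed edgeR's test, and 1 in each had an unadjusted p under 0.05. The calls of Zfp775 at day 6, Tmem176a, Tmem176b, Repin1 and Lrrc61 were each lost when 1 or more single libraries were left out (adjusted p 0.0504 to 0.108), and that of Zfp775 between day 6 and day 21 was not.

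The products of 10 genes of apoptosis and autophagy have been reported to act with GIMAP proteins. After 5-FU once at day 6, 1 was called higher and 0 lower, beside 11.5% and 10.6% of all genes. From day 6 to day 21 these were 1 and 2, beside 12.3% and 13.7%. After 5-FU 3 times relative to PBS once they were 1 and 1, beside 11.8% and 9.35%. Bcl2l1, which encodes the survival protein Bcl-xL, rose at day 6 after 5-FU once (log2 fold change 0.46, adjusted p = 0.0110, edgeR) and after 5-FU 3 times relative to PBS once (0.68, adjusted p = 0.0067, edgeR). It was at 248, 263 and 270.1 CPM after 5-FU once and at 185, 208 and 171 CPM after PBS once, without overlap. From day 6 to day 21 after 5-FU once, Bcl2l1 and the pro-apoptotic Bax fell (−0.44 and −0.49), whereas Map1lc3b, which encodes the autophagosome protein LC3B, rose (0.41). Gabarapl1, a relative of LC3B, was lower at day 6 after 5-FU 3 times than after PBS once (−0.29, adjusted p = 0.0391, edgeR). In the other 3 comparisons 0 of the 10 were called by edgeR, with 2, 2 and 1 at an unadjusted p under 0.05. The calls of Bcl2l1 and Map1lc3b held under every alternative tried, and those of Bax and Gabarapl1 were lost in 4 and 7 of 13 alternatives, most of them leaving out a library (adjusted p up to 0.106).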

How the data were processed

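RNA of sorted HSCs was made into cDNA with SMART-Seq v4, and libraries were sequenced as single-end 75-base reads. The authors aligned reads with TopHat 2.0.13 to mm10 and used Cufflinks 2.2.1, and deposited whole-number counts per gene symbol. The program that made the counts, and its use of strand and of multiply mapped reads, are not given in the sources used here. All 21 libraries were mapped to groups by GEO's labels.

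The members and lists were chosen with earlier results of these data known. Each comparison of 2 groups was fitted on its 6 libraries with edgeR 4.0.16 in R 4.3.3 (TMM, filterByExpr, quasi-likelihood F test, Benjamini-Hochberg adjustment, threshold 0.05). Of the 6 tested comparisons, 4 share the PBS once libraries and 4 share those of 5-FU once at day 6 or day 21, so they are not independent of each other. Levels are CPM with TMM factors over all 21 libraries. The named genes were the 8 members, the 5 nearest table genes on each side, 10 partner genes and the 5 genes most alike. Positions and transcript lengths came from a GRCm38 annotation, in which 20499 of the 21000 symbols matched, and promoter windows from RefSeq. Counts were simulated for 5-FU once against PBS once at day 6, with 200 of 12759 genes changed by a factor of 4 or 0.25. On these, edgeR recovered 85% of changed genes with 3.95% false calls, and DESeq2 1.42.0 recovered 89.5% with 21.1%. Smaller changes, such as those of most members called, were not simulated, so their recovery is not known. Libraries of a group differed by 16.8 to 37.1 times the variance of sampling, so no library was a copy. Alternatives were other scaling, DESeq2, other filters, a replicate block, a fit of all 21 libraries and leaving out each library. 1 marker list is not reported here.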

Additional observations from a re-analysis of the deposited data

Results flagged for a closer look

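Gimap4 and Gimap3 moved in opposite directions between day 6 and day 21 in mice given 5-FU once and in mice given it 3 times. In each case the libraries of the 2 days did not overlap. Gimap4 had a day 21 to day 6 log2 ratio of −1.23 where the drug was given once and of 0.49 where it was given 3 times. For Gimap3 these ratios were −0.57 and 0.65. The difference between them was not tested, because the group of 5-FU 3 times at day 21 was used to choose the genes. Of the groups compared here, only 5-FU once at day 6 carries the column suffix. Suffix and number of administrations thus cannot be told apart in this difference.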

How the results depend on the processing

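No value of a member that passed the test changed sign under any alternative. Of 624 values of members under alternatives, 564 kept their side of the threshold, 47 lost a call and 13 gained one. The members called higher after 5-FU once relative to PBS once at day 6 numbered 2, but 1 with a replicate block and 1 to 2 when a library was left out. At day 21 against PBS once, DESeq2 called 1 (Gimap4), against 0. From day 6 to day 21 after 5-FU once, 1 to 2 were called lower when a library was left out, against 2. After 5-FU 3 times at day 6, 3 were lower than after PBS once, with 5 under scaling by library size alone, 5 with DESeq2, 0 with the replicate block and 0 to 2 when a library was left out. Relative to 5-FU once, 3 were lower, with 6 by DESeq2, 0 with the replicate block and 0 to 1 when a library was left out. Fits that leave out a library or add a block have fewer residual degrees of freedom. Replicate numbers did not pair the libraries (correlations of deviations from −0.048 to 0.044), and the blocked Gimap7 log2 fold change at day 6 after 5-FU once was 1.60 (adjusted p = 0.0511, edgeR). Over all genes, DESeq2 called 400 higher and 325 lower at day 21 after 5-FU once relative to PBS once, against 9 and 19 with edgeR, and 774 and 510 for 5-FU 3 times relative to once, against 188 and 151. Signs changed for 20 values of members that were not called. The low counts of Gimap7 limit what can be said of it.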
